A study of Homo sapiens with 80 samples.

Results

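The genes followed here are 10 negative feedback regulators and transcription factors that respond to the kinase ERK: the phosphatase genes DUSP4, DUSP5 and DUSP6, the Sprouty genes SPRY2 and SPRY4, the Spred genes SPRED1 and SPRED2, the receptor inhibitor gene ERRFI1, and the ETS factor genes ETV4 and ETV5. They were chosen by name, from what is known of the pathway, and with earlier results of these data known. The RNA-seq tables held 58735 genes, PRO-seq 17792 and DGE 17463. All 10 had a row in each RNA-seq table and 9 had one in PRO-seq and in DGE, where no row for SPRY2 was used.

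Activated ALK, the receptor tyrosine kinase that drives this lymphoma as a fusion protein, passes its signal through the adaptors SHC1 and GRB2, the exchange factor SOS, RAS and RAF to MEK and ERK. ERK in turn raises the transcription of its own inhibitors. Dual-specificity phosphatases remove the activating phosphates of ERK, DUSP6 in the cytoplasm and DUSP4 and DUSP5 in the nucleus. Sprouty and Spred proteins act between the receptor and RAF, and ERRFI1 (also called MIG6) binds the kinase domain of EGFR family receptors. ETV4 and ETV5 are PEA3 group ETS factors whose genes are commonly read, together with DUSP6 and SPRY4, as markers of ERK output.

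SU-DHL-1 and KI-JK are established T-cell lymphoma lines of the anaplastic large cell type, both ALK-positive. Regrown SU-DHL-1 cells were 3 separate pools that had been made resistant with rising lenalidomide and then kept off the drug for at least 2 months, and the parental cells had no such history. PRO-seq (run-on sequencing, which counts RNA at engaged polymerase) set 3 parental against 3 regrown libraries. DGE (sequencing of transcript 3' ends for digital gene expression) set 2.5 µM lenalidomide for 18 h against its solvent, DMSO, in both parental and regrown cells. RNA-seq in parental and regrown cells carrying Cas9 and an inducible guide against ZFP91 set doxycycline (1 µg/ml for 96 h, called the ZFP91 knockout below) against no doxycycline, so that knockout and doxycycline cannot be told apart. RNA-seq also set a CSNK2B vector against an empty vector in SU-DHL-1 and in KI-JK, where line, table and the richer serum given to KI-JK cannot be told apart. Each of the 14 groups held 3 libraries. Nothing in the labels shows that parental, vector or KI-JK replicates were separate lines, so p-values there measure only the spread between these libraries.

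Totals per library were 33.5 to 47.2 M counts in PRO-seq, 14.4 to 28.9 M in RNA-seq and only 41571 to 395827 in DGE, with the lowest in parental lenalidomide replicate 3. All 8 lymphoma markers reached 1 CPM (counts scaled by TMM to a common library total) in each assay, while of 9 T cell identity markers 3 did so in RNA-seq (CD3D, CD5 and TRBC2). Of the B cell markers PAX5 reached 1 CPM in RNA-seq, in KI-JK only, and of the myeloid markers CSF1R and ITGAM, with MPO at 0 in every RNA-seq library. Of the 6 epithelial or stromal markers COL1A1, COL1A2 and KRT19 reached it, and the list summed to 1.16 to 6.99 CPM per RNA-seq group. ZFP91 RNA was 112, 115 and 110 CPM in parental cells without doxycycline and 93.1, 87.6 and 88.1 after the knockout, a change of -0.34 ± 0.08 on the log2 scale that did not pass the test (adjusted p = 0.158). In regrown cells ZFP91 went from 96.8, 98.5 and 90.1 CPM to 101, 83.5 and 78.3 CPM, and the groups overlapped. A guide cuts the gene and need not remove its RNA, so RNA is a weak check of these labels. The CSNK2B vector raised CSNK2B from 28.5 to 29.9 CPM to 236 to 250 CPM in SU-DHL-1, and from 15.6 to 18.4 CPM to 76.9 to 81.0 CPM in KI-JK. Regrown cells without doxycycline ran high in a length score, the slope of a library's log2 CPM on log2 gene length. Their scores were 0.044, 0.021 and 0.079, above the regrown knockout libraries (-0.029, -0.027 and -0.010) and all 3 parental libraries without doxycycline (0.0022, -0.0089 and -0.042). The parental knockout libraries, at 0.040, -0.058 and -0.012, overlapped them.

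How dense were the PRO-seq counts of these genes in parental cells? Per kilobase of gene, PRO-seq placed DUSP6 first, at 9.97, 11.1 and 11.6 CPM per kb from the lowest to the highest library. ERRFI1 (5.74 to 6.19) and ETV4 (5.45 to 5.95) followed with overlapping ranges, then SPRY4 (4.21 to 4.85) and SPRED1 (3.06 to 3.53). DUSP5 (1.75 to 2.45), ETV5 (1.10 to 1.19), SPRED2 (0.875 to 0.977) and DUSP4 (0.388 to 0.542) were lowest. Apart from ERRFI1 and ETV4, no neighbours in this order overlapped. The counts cover whole gene spans, from 5263 bases in DUSP6 to 121668 in SPRED2, and include signal near the start. The share of that signal was not measured, so the order is one of count density. In regrown cells DUSP6 (mean 7.16 CPM per kb) and ETV4 (6.85) led with overlapping ranges, and ERRFI1 had moved from second to eighth place at 0.88. Its regrown range (0.791 to 0.949) overlapped those of SPRED2 (0.843 to 1.13) and DUSP5 (0.918 to 1.23), so its place below these genes was not separate.

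What changed in cells that had regrown under lenalidomide? ERRFI1 fell in PRO-seq and in both RNA-seq comparisons, by more than any other of these genes. ETV5 and ETV4 rose in the same 3 comparisons, SPRY4 rose in RNA-seq and not in PRO-seq, and the phosphatase genes differed by assay. In PRO-seq 2 of the 9 tested genes rose and 3 fell, against 30.2% of all genes called (14% higher and 16.2% lower; edgeR, Benjamini-Hochberg adjusted p under 0.05). In RNA-seq without doxycycline 3 rose and 2 fell of 9, against 43.7% called (22.6% higher and 21.1% lower), and after the knockout 4 rose and 4 fell of 9, against 38.4% called (18.6% higher and 19.8% lower). The median log2 fold change of the tested members was -0.02 in PRO-seq, 0.12 in RNA-seq without doxycycline and 0.01 after the knockout, beside medians over all genes of 0.02, -0.0025 and 2.28e-05. With shares called this high in all genes, the number of members called says little about the set, and the values of single genes carry the description below. Marker sums moved with this contrast too: the 9 T cell identity markers summed to 128 to 133 CPM in parental and 87.0 to 109 CPM in regrown RNA-seq libraries without doxycycline, and the 5 myeloid markers, of which 2 reached 1 CPM in any group, to 15.1 to 18.0 and 7.22 to 8.90 CPM. The 8 lymphoma markers summed to 6891 to 7237 CPM in parental and 5619 to 6088 CPM in regrown libraries of the same comparison. Of them IRF4, TNFRSF8, GZMB and IL2RA were called lower and PRF1 higher. The T cell markers went both ways: mean CD5 was 94.3 CPM in parental and 51.5 CPM in regrown cells, TRBC2 0.767 and 9.38 CPM, and CD3D 35.3 and 38.0 CPM, with CD5 called lower and TRBC2 called higher. Their part in the results was not tested.

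**Figure D1:**
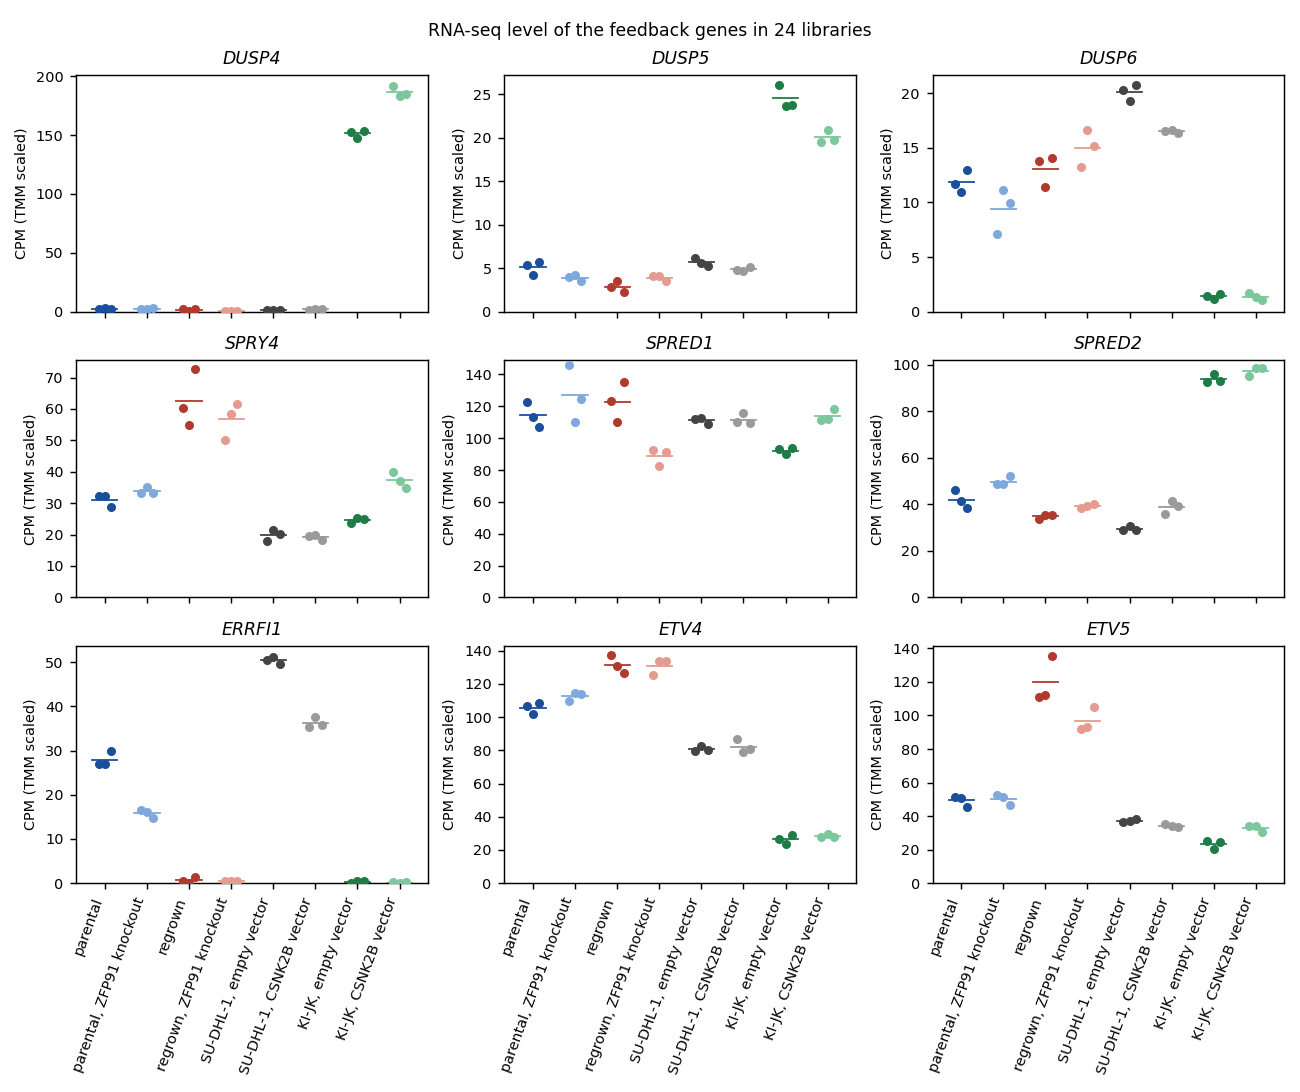
TMM-scaled CPM (vertical axis, linear, starting at 0, a separate range per gene) of 9 of the genes in the 24 RNA-seq libraries. Each point is 1 library, each short line the mean of a group of 3, and groups run along the horizontal axis. ERRFI1 stands near 0 in regrown SU-DHL-1 and in KI-JK, while DUSP4 is high in KI-JK alone.

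Among the phosphatase genes, DUSP5 and DUSP6 fell in PRO-seq, and after the knockout DUSP6 rose. DUSP6 (chromosome 12, 89347235 to 89352497 in hg38, minus strand) read 58.6, 52.5 and 61.1 CPM in the parental PRO-seq libraries and 40.6, 41.6 and 30.9 CPM in the regrown ones. The groups did not overlap, and DUSP6 fell by 0.61 ± 0.13 on the log2 scale (adjusted p = 0.0051). RNA-seq without doxycycline showed no such fall. It gave 11.7, 11 and 13 CPM in parental and 13.8, 11.4 and 14.1 CPM in regrown cells, which overlapped (log2 0.16 ± 0.16, adjusted p = 0.451). The difference between these PRO-seq and RNA-seq changes was not tested. After the knockout, DUSP6 was higher in regrown cells, at 13.2, 16.6 and 15.2 CPM against 7.13, 11.1 and 9.93 CPM in parental cells (0.67 ± 0.17, adjusted p = 0.0138), and leaving out regrown replicate 2 ended this call (adjusted p = 0.0633). In DGE under DMSO the summed counts were 25 in parental and 7 in regrown libraries, a ratio of 3.50 (95% exact counting interval 1.47 to 9.58). Under lenalidomide they were 24 and 11, a ratio of 1.71 with an interval of 0.804 to 3.86, which includes no change. DUSP6 was below the count filter in both fits, and the intervals cover counting error only, not the spread between libraries.

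DUSP5, a nuclear ERK phosphatase (chromosome 10, 110497907 to 110511533 in hg38, plus strand), read 23.8, 23.9 and 33.4 CPM in parental and 12.5, 16.8 and 15.2 CPM in regrown PRO-seq libraries. All regrown libraries were below all parental ones, and DUSP5 fell by 0.86 ± 0.17 (adjusted p = 0.0041). RNA-seq without doxycycline gave 5.40, 4.21 and 5.76 against 2.82, 3.58 and 2.24 CPM, again without overlap, and a log2 change of -0.81 ± 0.28 (adjusted p = 0.0319). That call was lost with the replicate number as a block (adjusted p = 0.0621), with the length score as a covariate (-0.29 ± 0.49, adjusted p = 0.741), and without parental replicate 1 or 3 or regrown replicate 1 or 3 (adjusted p up to 0.133). The length scores of these groups did not overlap, so the covariate fit could hardly tell score and group apart. After the knockout DUSP5 gave 0.01 ± 0.19 (adjusted p = 0.972), with a 95% interval of -0.42 to 0.43.

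DUSP4, the third phosphatase gene, had low levels in SU-DHL-1. PRO-seq gave 6.94, 6.84 and 9.54 CPM in parental and 7.27, 8.82 and 6.85 CPM in regrown cells (log2 -0.02, 95% interval -0.47 to 0.42, adjusted p = 0.942). In RNA-seq without doxycycline parental cells read 2.70, 2.85 and 2.34 CPM and regrown pools 1.88, 0.326 and 2.66 CPM, so the pools spread more widely than the 2 groups differed (-0.68 ± 0.53, adjusted p = 0.329). After the knockout the regrown libraries lay at 1.00, 0.788 and 0.943 CPM against 2.38, 2.56 and 2.84 CPM in parental cells, a log2 change of -1.5 ± 0.28 (adjusted p = 0.0025).

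Promoters are shown for DUSP6 and ERRFI1, 2 of the genes whose PRO-seq counts fell, and for SPRY4, whose RNA rose while its PRO-seq counts did not. The sequences are those of RefSeq on GRCh38.p14, 250 bases before to 50 bases after a RefSeq start, read along the gene's own strand. Capitals mark GGAA or its reverse complement TTCC, the core that ETS factors such as ETV4 and ETV5 recognise, and in ERRFI1 the letters TATATA. The windows are chr12:89352452-89352751, chr1:8026260-8026559 and chr5:142324198-142324497, all on the minus strand. That of SPRY4 lies wholly inside the span counted in PRO-seq (142310427 to 142325021), so its start is not the upstream end of that span.
DUSP6: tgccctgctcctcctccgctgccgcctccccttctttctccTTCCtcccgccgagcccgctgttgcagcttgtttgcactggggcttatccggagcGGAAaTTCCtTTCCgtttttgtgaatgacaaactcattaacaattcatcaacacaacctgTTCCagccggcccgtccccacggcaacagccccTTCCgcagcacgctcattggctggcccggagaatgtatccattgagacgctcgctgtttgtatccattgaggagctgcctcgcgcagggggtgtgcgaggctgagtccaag
ERRFI1: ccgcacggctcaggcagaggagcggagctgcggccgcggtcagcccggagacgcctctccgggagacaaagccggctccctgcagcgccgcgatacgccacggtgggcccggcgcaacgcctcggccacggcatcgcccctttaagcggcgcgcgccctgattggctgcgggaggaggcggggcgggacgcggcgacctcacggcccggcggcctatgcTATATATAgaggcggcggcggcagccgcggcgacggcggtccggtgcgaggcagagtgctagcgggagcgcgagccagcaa
SPRY4: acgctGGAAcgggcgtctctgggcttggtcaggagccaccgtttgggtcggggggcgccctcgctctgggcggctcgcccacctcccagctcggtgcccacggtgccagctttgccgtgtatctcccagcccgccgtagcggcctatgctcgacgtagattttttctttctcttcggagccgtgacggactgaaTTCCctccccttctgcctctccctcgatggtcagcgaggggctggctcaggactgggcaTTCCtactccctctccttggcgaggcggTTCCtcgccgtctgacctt
Searched on both strands, GGAA stood 6 times in the DUSP6 window, 4 times in that of SPRY4 and not at all in that of ERRFI1, and 95.5% of 35116 RefSeq promoter windows of this length held it. The ERRFI1 window held 2 overlapping TATATA matches, 31 and 29 bases before the start, a motif in 3.99% of windows. RefSeq windows were matched for 6 of the 10 genes, and the longer ETS form CCGGAAG, present in 10.3% of all windows, was in none of theirs. These are matches of letters and not sites of binding.

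SPRY4 (chromosome 5, 142310427 to 142325021 in hg38, minus strand), a Sprouty inhibitor acting upstream of RAF, showed a clear separation in RNA and none in nascent transcription. RNA-seq without doxycycline read 32.2, 32.3 and 28.8 CPM in parental and 60.3, 55.0 and 72.8 CPM in regrown cells. The lowest regrown library was well above the highest parental one, and SPRY4 rose by 1.03 ± 0.12 (adjusted p = 1.03e-05). The length scores of these groups did not overlap either, as given above, which holds for every gene in this comparison. Within the pools SPRY4 ran in the order of the score. So did DUSP4, DUSP6, SPRED1 and ERRFI1, whereas DUSP5, SPRED2, ETV4 and ETV5 did not. After the knockout SPRY4 was again higher in regrown cells, at 50.1, 58.4 and 61.5 against 33.4, 35.1 and 33.2 CPM (0.75 ± 0.10, adjusted p = 0.00037). PRO-seq gave 62.2, 61.4 and 70.8 CPM in parental and 60.7, 73.5 and 69.8 CPM in regrown cells, which overlapped (0.07 ± 0.10, 95% interval -0.16 to 0.30). The difference between the PRO-seq and RNA-seq changes was not tested. In DGE under DMSO SPRY4 had 8 counts in parental and 17 in regrown cells, a parental to regrown ratio of 0.461 with an interval of 0.172 to 1.13.

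SPRED1 and SPRED2, which keep RAF from being activated and recruit the RAS inhibitor neurofibromin, were each called in 1 of the 3 comparisons. SPRED1 read 123, 113 and 107 CPM in parental and 124, 110 and 135 CPM in regrown RNA-seq libraries without doxycycline (0.12 ± 0.10, adjusted p = 0.338), and its PRO-seq change of -0.26 ± 0.13 did not pass the test (adjusted p = 0.152). After the knockout SPRED1 was lower in regrown cells, at 92.3, 82.6 and 91.3 against 146, 110 and 125 CPM, a log2 change of -0.51 ± 0.11 (adjusted p = 0.0050). SPRED2 gave 0.05 ± 0.12 in PRO-seq (adjusted p = 0.797) and -0.24 ± 0.11 in RNA-seq without doxycycline (adjusted p = 0.0828), which passed with library size scaling alone (-0.34, adjusted p = 0.018), a setting that shifts the median of all genes by -0.10, and with all 4 groups in 1 fit (adjusted p = 0.0375). After the knockout SPRED2 fell by 0.34 ± 0.08 (adjusted p = 0.0087), from 48.6, 48.6 and 52.3 to 38.3, 39.3 and 40.2 CPM, and without parental knockout replicate 3 its adjusted p was 0.0522. SPRY2, the other Sprouty gene named, had 0 to 7 counts per RNA-seq library, 27 in all 24, and was tested in no comparison.

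ERRFI1 (chromosome 1, 8011727 to 8026309 in hg38, minus strand) was nearly lost from regrown cells. PRO-seq read 90.3, 83.7 and 86.3 CPM in parental and 13.8, 13 and 11.5 CPM in regrown cells, a log2 change of -2.77 ± 0.11 (adjusted p = 1.56e-07). All 3 pools were low by about the same amount. In RNA-seq without doxycycline ERRFI1 read 26.9, 27 and 29.9 CPM in parental cells and 0.575, 0.0543 and 1.33 CPM in the pools, and the log2 change was -5.43 ± 0.38 (adjusted p = 8.97e-08). These pools held 11, 1 and 22 counts, so their own order rests on few reads. After the knockout the log2 change was -5.00 ± 0.18 (adjusted p = 5.70e-07), from 16.6, 16.1 and 14.8 to 0.522, 0.420 and 0.519 CPM. The RNA-seq changes were larger than the PRO-seq change, and that difference was not tested.

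DGE gave the same direction for ERRFI1 from few counts. Under DMSO the parental libraries summed to 34 counts and the regrown ones to 3, a ratio of 11.1 (95% exact counting interval 3.49 to 56.5). Under lenalidomide the sums were 37 and 0. With the floor set at 3 counts for the whole regrown group, the ratio was 9.64, a value without a counting interval. The gene failed the count filter in both of these fits and was therefore not tested there. With no filter it was called in both, with adjusted p of 0.00044 under DMSO and 0.00084 under lenalidomide.

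ETV5 (chromosome 3, 186046314 to 186109089 in hg38, minus strand) rose in regrown cells, and so did its neighbours. PRO-seq read 73.4, 74.7 and 69.0 CPM in parental and 125, 122 and 121 CPM in regrown cells (0.76 ± 0.08, adjusted p = 0.00011). RNA-seq without doxycycline read 51.6, 50.8 and 45.6 against 111, 112 and 136 CPM (1.30 ± 0.11, adjusted p = 3.50e-07), and after the knockout 52.4, 51.2 and 46.6 against 92.2, 92.9 and 105 CPM (0.96 ± 0.09, adjusted p = 4.88e-05). No groups overlapped in these 3 comparisons. The 24 nearest tested genes, 12 on each side, had a median of 1.03 in PRO-seq with 21 of 24 called higher, 0.91 in RNA-seq without doxycycline with 16 called higher, and 1.06 after the knockout with 18 called higher. ETV5 thus changed by about as much as the stretch of chromosome around it, and the part of the stretch in its rise was not tested.

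ETV4, the other PEA3 group factor (chromosome 17, 43527846 to 43546336 in hg38, minus strand), rose by less. PRO-seq gave 101, 101 and 110 CPM in parental and 121, 127 and 132 CPM in regrown cells (0.29 ± 0.09, adjusted p = 0.0324), and leaving out any 1 of parental replicates 1 and 2 and regrown replicates 2 and 3 ended the call, with adjusted p up to 0.123. RNA-seq without doxycycline gave 107, 102 and 108 against 137, 131 and 127 CPM (0.34 ± 0.08, adjusted p = 0.0051), a call kept with each library left out in turn. After the knockout the rise was 0.22 ± 0.07 (adjusted p = 0.0347), lost with the replicate block (adjusted p = 0.0764), with no count filter (adjusted p = 0.0859), and without parental replicate 3 or any 1 of the regrown libraries. The median of its 24 neighbours was 0.17 in PRO-seq and 0.02 in RNA-seq without doxycycline.

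**Figure D2:**
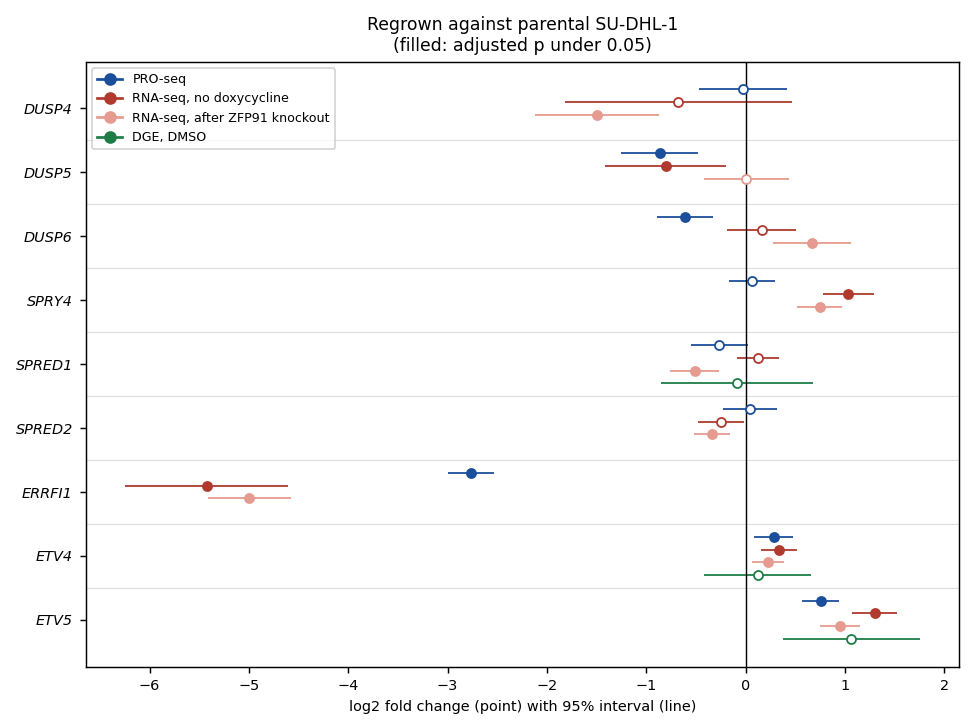
Log2 fold change of regrown against parental SU-DHL-1 (horizontal axis) by gene, with 95% intervals as lines, in PRO-seq, in RNA-seq without doxycycline and after the ZFP91 knockout, and in DGE under DMSO for the 3 genes tested there. Filled points passed an adjusted p of 0.05, and ERRFI1 lies far to the left in each assay that tested it.

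For most of the other genes the neighbourhood moved less than the gene or the other way. For ERRFI1 the median of the 24 nearest genes was 0.05 in PRO-seq and -0.0010 in RNA-seq without doxycycline, with 0 and 4 of them called higher and 7 and 5 called lower. SPRY4 had a neighbour median of 0.06 in RNA-seq without doxycycline beside its own 1.03, and DUSP6 one of 0.05 in PRO-seq beside its own -0.61. DUSP5 was in between, with a PRO-seq neighbour median of -0.33, 10 of 24 called lower, beside its own -0.86. The neighbours of SPRED2 had a PRO-seq median of -0.41, with 13 of 24 called lower, while SPRED2 itself gave 0.05.

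**Figure D3:**
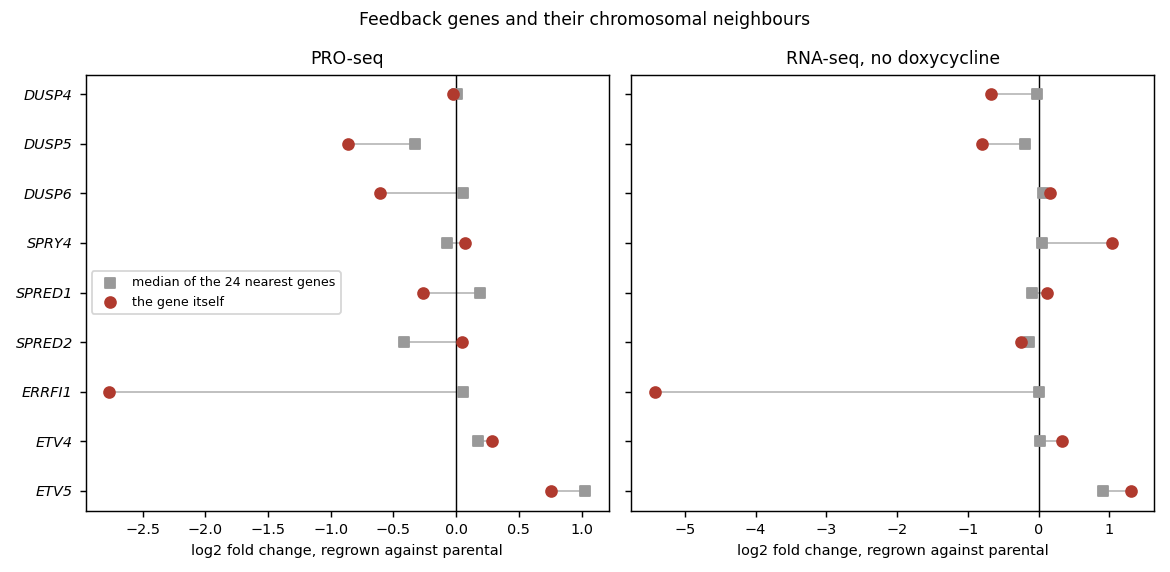
Log2 fold change of regrown against parental cells (horizontal axis) for each gene (circle) and the median of the 24 nearest tested genes on its chromosome (square), in PRO-seq on the left and RNA-seq without doxycycline on the right. Circle and square lie close for ETV5, at about 1, and far apart for ERRFI1.

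Did 18 h of lenalidomide move the feedback genes? In parental cells 5 members passed the DGE count filter and 0 were called (edgeR, 0 of 5 at an unadjusted p under 0.05, 0 with DESeq2), against 0.845% of all genes (0.673% higher and 0.173% lower). SPRED1 read 54.4, 36.9 and 48.0 CPM under DMSO and 60.6, 80.5 and 89.4 CPM under the drug (0.65 ± 0.35, 95% interval -0.07 to 1.37, adjusted p = 0.64). The groups did not overlap, but they held only 48 SPRED1 counts under DMSO and 54 under the drug. The highest drug value, 89.4 CPM, was 4 counts in replicate 3, the library with the lowest total. SPRED2, below the filter and not tested, read 25.5 to 28.6 CPM under DMSO and 9.10 to 22.4 CPM under the drug, also without overlap, from 28 and 9 counts. Its value of 22.4 CPM was 1 count in that same library. ERRFI1 gave 0.56 ± 0.44 (interval -0.35 to 1.47), DUSP6 0.37 ± 0.57 (-0.79 to 1.53), ETV4 0.22 ± 0.28 (-0.36 to 0.80) and ETV5 -0.07 ± 0.42 (-0.92 to 0.79). These intervals leave room for changes of 1 log2 unit or more for ERRFI1, DUSP6 and SPRED1.

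In regrown cells 3 members were tested and 0 called (edgeR, 0 of 3 at an unadjusted p under 0.05, 0 with DESeq2), against 0.23% of all genes, all higher. SPRED1 gave 0.54 ± 0.43, ETV5 0.15 ± 0.37 and ETV4 -0.03 ± 0.36. The test of the difference between the 2 drug responses called 0 of 5 members and 0 of 6838 genes, with 285 genes at an unadjusted p under 0.05 and 0 genes by DESeq2. Between regrown and parental cells DGE called 0 of 3 members under DMSO, against 6.21% of all genes (2.91% higher and 3.3% lower), and 0 of 3 under lenalidomide, against 2.78% (1.2% higher and 1.57% lower), with ETV5 alone at an unadjusted p under 0.05 in each and 0 called with DESeq2 in each.

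ETV5 under DMSO read 25.8, 51.1 and 66.0 CPM in parental and 137, 95.7 and 64.5 CPM in regrown cells, so the groups overlapped (1.07 ± 0.34, adjusted p = 0.0562). It passed with the replicate number as a block (adjusted p = 0.0149), with no filter (adjusted p = 0.0305), and without parental replicate 3 (adjusted p = 0.0355) or regrown replicate 3 (adjusted p = 0.0075). The median of its 24 neighbours there was 0.93, with 11 called higher. ETV4 gave 0.12 ± 0.26 and SPRED1 -0.09 ± 0.37. SPRED2 was under the filter, with 28 counts in parental and 8 in regrown cells under DMSO (ratio 3.43, interval 1.52 to 8.70) but 9 and 8 under lenalidomide (ratio 0.879, interval 0.301 to 2.62). DUSP4 had at most 1 count per group and DUSP5 at most 4.

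Did the ZFP91 knockout change these genes? In parental cells 1 of 9 tested members fell, against 0.427% of all genes called (0.0599% higher and 0.367% lower). ERRFI1 went from 26.9, 27 and 29.9 CPM to 16.6, 16.1 and 14.8 CPM, a log2 change of -0.83 ± 0.11 (adjusted p = 0.0151), and the groups did not overlap. The fold was stable but the call was not: with each library left out the log2 change lay between -0.87 and -0.78, while the adjusted p rose to between 0.0961 and 0.165 without any 1 of the 3 libraries given no doxycycline or knockout replicate 3, and to 0.268 with all 4 groups in 1 fit. Calls over all genes went from 57 to 0 without replicate 2 given no doxycycline. DUSP5 (-0.40 ± 0.20, adjusted p = 0.645) and DUSP6 (-0.35 ± 0.17, adjusted p = 0.654) lay on the same side without passing, and SPRY4 (0.11), SPRED1 (0.14), SPRED2 (0.24), ETV4 (0.08), ETV5 (0.01) and DUSP4 (-0.03) were not called.

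In regrown cells 2 of 9 fell, against 31.9% of all genes called (16.3% higher and 15.7% lower). SPRED1 went from 124, 110 and 135 CPM to 92.3, 82.6 and 91.3 CPM (-0.47 ± 0.09, adjusted p = 0.0025). ETV5 went from 111, 112 and 136 CPM to 92.2, 92.9 and 105 CPM (-0.31 ± 0.10, adjusted p = 0.0277). Neither pair of groups overlapped, but the length scores of these groups did not overlap either, as given above. With the length score as a covariate 0 members and 0 genes were called (edgeR), SPRED1 was -0.12 ± 0.15 and ETV5 0.10 ± 0.14. Because the scores separated the 2 groups, this fit could hardly tell score and knockout apart. ETV5 also lost its call without regrown replicate 3 given no doxycycline or knockout replicate 1 or 2 (adjusted p 0.112 to 0.138). ERRFI1, at 31 to 34 counts per group, had an interval of -2.02 to 1.23.

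The test of the difference between the 2 knockout responses called 1 of 9 members, SPRED1, against 9.81% of all genes (4.47% higher and 5.33% lower). SPRED1 responded by 0.14 in parental and by -0.47 in regrown cells, a difference of -0.62 ± 0.16 (adjusted p = 0.0308). With the length score as a covariate it was -0.26 ± 0.11 (adjusted p = 0.269), and the call was lost in 9 of the 12 fits that left out 1 library (adjusted p up to 0.0926). Both regrown arms came from the same 3 pools, and with the pool as a block the knockout in regrown cells also called 2 members.

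**Figure D4:**
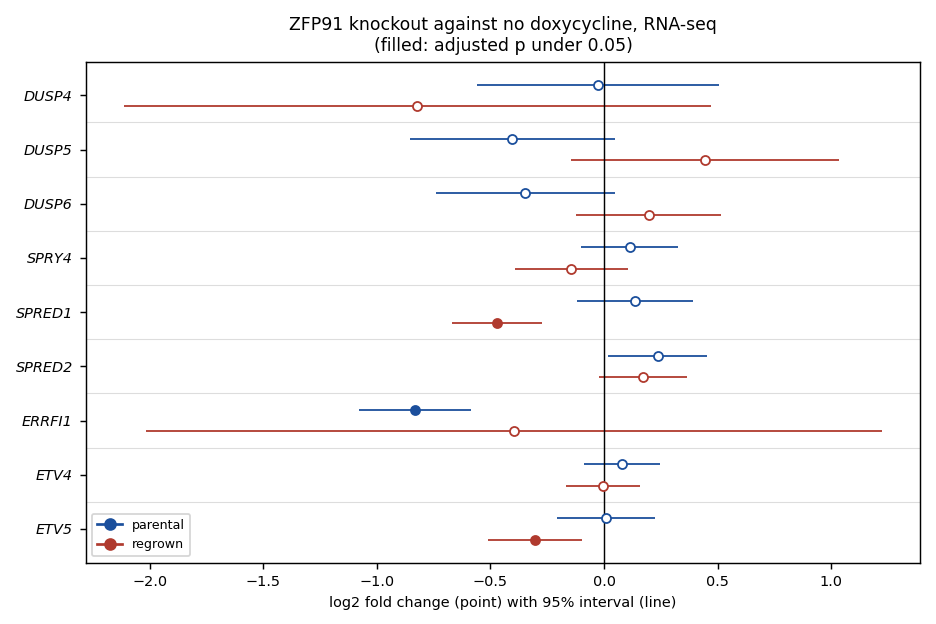
Log2 fold change of ZFP91 knockout against no doxycycline in RNA-seq (horizontal axis) by gene, in parental and regrown SU-DHL-1, with 95% intervals as lines. Filled points passed an adjusted p of 0.05: ERRFI1 in parental cells, SPRED1 and ETV5 in regrown cells.

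How did the genes respond to a CSNK2B vector, which adds RNA of the regulatory subunit of casein kinase 2? In SU-DHL-1 1 of 9 members rose and 2 fell, against 6.74% of all genes called (3.39% higher and 3.34% lower). ERRFI1 went from 50.6, 51.2 and 49.6 CPM with the empty vector to 35.3, 37.6 and 35.9 CPM (-0.47 ± 0.05, adjusted p = 6.88e-07). SPRED2 went from 29.2, 30.7 and 28.9 to 35.7, 41.5 and 39.3 CPM (0.40 ± 0.06, adjusted p = 0.00010). In both genes the groups were fully separate, and the calls held with each library left out.

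DUSP6 went from 20.3, 19.3 and 20.7 CPM to 16.5, 16.6 and 16.4 CPM in SU-DHL-1 (-0.28 ± 0.07, adjusted p = 0.0154). The groups did not overlap, but DESeq2 gave an adjusted p of 0.0624, and without empty vector replicate 1 or 3 it was 0.0802 or 0.0662. DUSP4 went from 1.26, 1.35 and 1.10 to 1.72, 2.14 and 2.31 CPM, without overlap and without passing (0.74 ± 0.26, adjusted p = 0.0885). SPRY4 (-0.04), SPRED1 (0.01), ETV4 (0.03), ETV5 (-0.12) and DUSP5 (-0.22) were not called. Of the epithelial or stromal markers COL1A1 was called lower, at 1.79 to 6.13 CPM with the empty and 0.963 to 1.16 CPM with the CSNK2B vector. The T cell marker CD5 was also called lower. The 8 lymphoma markers summed to 5263 to 5490 CPM with the empty and 5679 to 5810 CPM with the CSNK2B vector. Of them GZMB, IL2RA, BATF3 and SOCS3 were called higher and IRF4 lower. The part of these markers in the results was not tested.

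In KI-JK 4 of 8 tested members rose and 1 fell, against 35.7% of all genes called (18.4% higher and 17.3% lower). SPRY4 went from 23.8, 25.2 and 25 to 39.8, 37.1 and 34.8 CPM (0.60 ± 0.07, adjusted p = 3.84e-07), and ETV5 from 25.3, 20.5 and 24.4 to 34.1, 34.3 and 30.3 CPM (0.50 ± 0.08, adjusted p = 2.10e-05). SPRED1 went from 93.1, 90.0 and 93.7 to 112, 112 and 118 CPM (0.31 ± 0.04), and DUSP4 from 153, 148 and 154 to 192, 183 and 185 CPM (0.31 ± 0.04). DUSP5 fell by 0.28 ± 0.07 (adjusted p = 0.0039), from 26.1, 23.7 and 23.8 to 19.5, 20.9 and 19.8 CPM. The 5 calls held with each library left out. SPRED2 (0.06), ETV4 (0.11) and DUSP6 (-0.04, at 1.08 to 1.71 CPM over both groups) were not called, and ERRFI1 and SPRY2 were under the filter. Marker sums moved with this vector too: the 5 B cell markers summed to 11 to 12.5 CPM with the empty and 9.20 to 9.43 CPM with the CSNK2B vector, the 5 myeloid markers to 135 to 138 and 127 to 133 CPM, and the 9 T cell markers to 47.5 to 49.6 and 53.8 to 57.6 CPM. PAX5 and ITGAM were called lower and CD5 higher, and MPO was at 0. The 8 lymphoma markers summed to 6757 to 6956 and 7129 to 7457 CPM, with GZMB, ALK and TNFRSF8 called higher and IL2RA lower. The epithelial or stromal marker KRT19 was also called lower, at 0.193 to 2.43 and 0 to 0.906 CPM. Their part in the results was not tested.

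The lines differed in their response. The test of the difference, KI-JK minus SU-DHL-1, called 4 of 9 members, against 19.2% of all genes (10.7% higher and 8.44% lower). SPRY4 (0.65 ± 0.10, adjusted p = 3.94e-05), ETV5 (0.63 ± 0.10, adjusted p = 2.04e-05) and SPRED1 (0.32 ± 0.06, adjusted p = 0.00025) responded more in KI-JK, and SPRED2 (-0.32 ± 0.08, adjusted p = 0.0028) more in SU-DHL-1. The 2 vectors raised CSNK2B itself by different amounts, by 3.06 ± 0.05 in SU-DHL-1 and 2.19 ± 0.06 in KI-JK, and the part of this in the differences was not tested. For DUSP6 the interval of the difference was -0.22 to 0.70, and for DUSP5 it was -0.34 to 0.25.

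**Figure D5:**
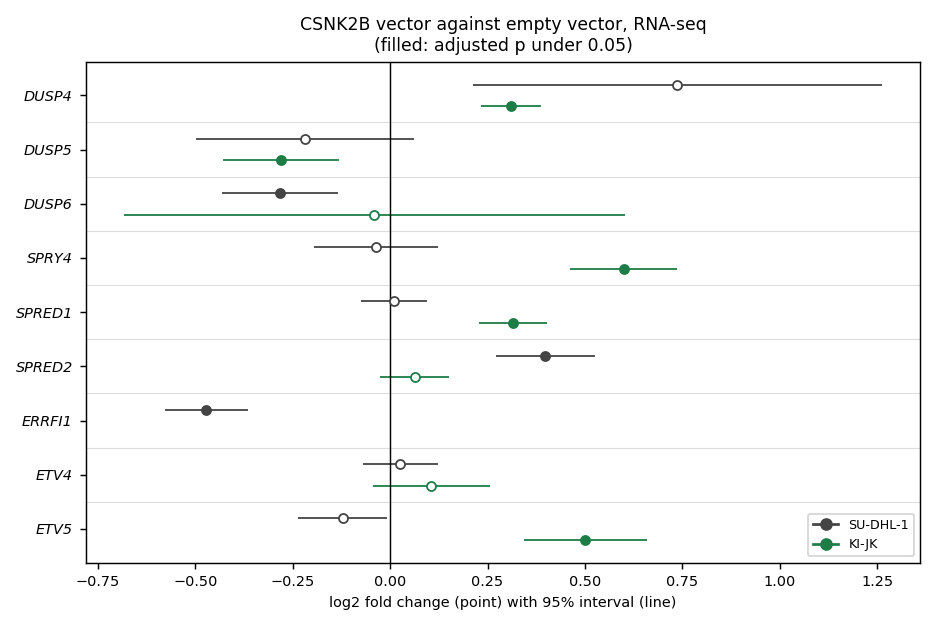
Log2 fold change of CSNK2B vector against empty vector in RNA-seq (horizontal axis) by gene, in SU-DHL-1 and KI-JK, with 95% intervals as lines. Filled points passed an adjusted p of 0.05: ERRFI1, SPRED2 and DUSP6 in SU-DHL-1, and SPRY4, ETV5, SPRED1, DUSP4 and DUSP5 in KI-JK, where ERRFI1 was not tested.

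Between the lines themselves, with empty vector, all 9 tested members differed, 4 higher and 5 lower in KI-JK, against 78.8% of all genes called (40.1% higher and 38.7% lower). DUSP4 read 153, 148 and 154 CPM in KI-JK against 1.26, 1.35 and 1.10 CPM in SU-DHL-1 (6.94 ± 0.08), while ERRFI1 read 0.0851, 0.386 and 0.494 CPM against 50.6, 51.2 and 49.6 CPM (-7.24 ± 0.15, on 24 counts in KI-JK). DUSP6 read 1.45, 1.2 and 1.65 CPM against 20.3, 19.3 and 20.7 CPM (-3.80 ± 0.14). The 3 phosphatase genes therefore did not stand on the same side: DUSP5 was higher in KI-JK by 2.10 ± 0.10 together with DUSP4, and DUSP6 lower.

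SPRED2 (1.68 ± 0.05) and SPRY4 (0.34 ± 0.08) were also higher in KI-JK, and ETV4 (-1.60 ± 0.06), ETV5 (-0.66 ± 0.07) and SPRED1 (-0.26 ± 0.04) lower. The neighbours of ETV4 had a median of -1.22 in this comparison, with 19 of 24 called lower, whereas those of ETV5 had 0.58, with 18 called higher, and those of DUSP4 0.21. These values come from tables normalized together here but deposited separately. Markers of other cell types also differed between the lines. The 5 B cell markers summed to 11 to 12.5 CPM in KI-JK and to at most 0.579 CPM in SU-DHL-1, nearly all of it PAX5, and the 5 myeloid markers to 135 to 138 and 19.8 to 20.4 CPM, nearly all of it CSF1R, with MPO at 0. Of the epithelial or stromal markers COL1A2 was called lower in KI-JK, at 0.128 to 0.494 CPM against 0 to 4.19 CPM in SU-DHL-1. All 8 lymphoma markers were called as well, 6 higher and 2 lower in KI-JK. They summed to 6757 to 6956 CPM in KI-JK and 5263 to 5490 CPM in SU-DHL-1. The part of these markers in the differences was not tested.

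SU-DHL-1 cells themselves differed between the 2 control sets, which come from separate tables and were not compared by a test. ERRFI1 ran from 26.9 to 29.9 CPM in parental cells without doxycycline and from 49.6 to 51.2 CPM with empty vector. DUSP6 ran from 11 to 13 and from 19.3 to 20.7 CPM, SPRY4 from 28.8 to 32.3 and from 17.9 to 21.4 CPM, and ETV5 from 45.6 to 51.6 and from 36.5 to 38.5 CPM.

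Other genes of the pathway gave a mixed picture. Of 25 ALK to ERK signalling genes, 24 were tested in PRO-seq of regrown against parental cells, where 3 rose and 2 fell, against 14% of all genes higher and 16.2% lower. They were led by KSR1, a scaffold of RAF and MEK (-0.90 ± 0.15), ALK (0.76 ± 0.13) and the adaptor gene GAB2 (0.41 ± 0.12). In RNA-seq without doxycycline 9 of 24 rose and 0 fell (edgeR), against 22.6% of all genes higher and 21.1% lower. After the knockout 4 rose and 4 fell of 24, against 18.6% higher and 19.8% lower, among them the MEK2 gene MAP2K2 (-0.80 ± 0.09) and the adaptor gene IRS1 (-0.71 ± 0.11), with a list median of -0.03. ALK RNA was 537 to 550 CPM in parental and 599 to 602 CPM in regrown cells without doxycycline, a change of 0.16 ± 0.08 that was not called (adjusted p = 0.116).

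Other ERK-responsive genes, such as the immediate early EGR factors, were also split. In PRO-seq 2 rose and 2 fell of 15, against the same shares of all genes as for the signalling list, led by the ETS factor gene ELK3 (1.65 ± 0.12), IER3 (1.74 ± 0.13) and EGR3 (-2.48 ± 0.26). In RNA-seq without doxycycline 4 rose and 5 fell of 14, led by ELK3 (1.85 ± 0.16), IER3 (1.40 ± 0.13) and EGR1 (-1.15 ± 0.14). After the knockout 4 rose and 3 fell of 14, led by ELK3 (1.42 ± 0.13), IER3 (1.96 ± 0.20) and the kinase gene PIM1 (-0.51 ± 0.09). DGE under DMSO, with 6.21% of all genes called, called EGR1 (-2.50 ± 0.41, adjusted p = 0.00015) and PIM1 (-0.76 ± 0.23, adjusted p = 0.0426).

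The list medians were 0.08 for signalling and -0.03 for ERK-responsive genes in PRO-seq and 0.18 and -0.22 in RNA-seq without doxycycline. Against the same shares of all genes, among 14 relatives of the members PRO-seq had 3 rises and 2 falls of 10 (median 0.17), led by SPRED3 (-1.02 ± 0.13), DUSP1, an inducible phosphatase of several MAP kinases (-1.10 ± 0.15), and DUSP7 (0.79 ± 0.17). DUSP1 was also the leading fall in RNA-seq without doxycycline (-1.87 ± 0.15, 3 rises and 3 falls of 11) and after the knockout (-2.05 ± 0.14, 1 rise and 2 falls of 11). The PRO-seq, DGE and RNA-seq comparisons used separate libraries, while the comparisons within the knockout table share groups.

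In the other RNA-seq comparisons the lists moved as follows. The knockout in parental cells called 0 of 24 signalling genes (edgeR), 1 of 14 ERK-responsive genes, EGR2 (-0.83 ± 0.13), and 0 of 10 relatives, against 0.427% of all genes. In regrown cells, where 16.3% of all genes were called higher and 15.7% lower, it called 8 of 24 signalling genes lower and 0 higher, led by PTPN11 (-0.54 ± 0.09), IRS1 (-0.74 ± 0.12) and MAP2K2 (-0.45 ± 0.08), 5 of 14 ERK-responsive genes higher and 1 lower, led by IER3 (0.80 ± 0.10), and 2 of 11 relatives higher and 4 lower, with the same length scores beside them as above. The CSNK2B vector in SU-DHL-1 called 2 of 25 signalling genes higher and 1 lower, led by IRS1 (0.20 ± 0.04), and 1 of 14 ERK-responsive genes, MCL1 (-0.15 ± 0.03), against 3.39% of all genes higher and 3.34% lower. In KI-JK, with 18.4% of all genes higher and 17.3% lower, it called 8 of 25 higher and 2 lower, led by the ERK1 gene MAPK3 (-0.33 ± 0.05), ALK (0.20 ± 0.03) and PTPN11 (0.21 ± 0.04), and 6 ERK-responsive genes higher and 2 lower of 14, led by HK2 (0.49 ± 0.06).

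Between KI-JK and SU-DHL-1 with empty vector 11 of 25 signalling genes were higher and 10 lower, 4 and 9 of 14 ERK-responsive genes, and 7 and 4 of 12 relatives, against 40.1% of all genes higher and 38.7% lower. EGR1 was lower in KI-JK by a log2 change of -4.62 ± 0.10 and EGR2 by -2.79 ± 0.08, and the Sprouty gene SPRY1 was higher by 9.82 ± 0.23.

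Did the members follow DUSP6 across libraries? Over the 24 RNA-seq libraries, the genes whose log2 CPM was most like that of DUSP6 among 15890 were DMAC2 (Pearson r = 0.986), FBL (0.985), UGT2B7, SPIN3 and BECN1 (0.984 each). Of the members ETV4 came nearest (0.899, rank 1079), followed by ERRFI1 (0.663) and ETV5 (0.547), while DUSP4 (-0.961) and SPRED2 (-0.974) ran opposite. The 24 points are 8 groups of 3, and the 6 KI-JK libraries, all low in DUSP6, carry most of this spread, so the values describe the lines more than the treatments.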

How the data were processed

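Counts per gene were analysed for 42 libraries in 5 tables, and the 38 ChIP-seq samples of the series were not analysed here. The deposited values are raw counts, whole numbers to which the authors applied no normalization. Per the submitters' processing notes, PRO-seq used cutadapt 1.14, Bowtie 1.2.2, featureCounts 1.6.2 and hg38. RNA-seq processing there named hg38, the aligner STAR 2.6.1d, edgeR 3.24.3 and DESeq2 1.20.0. For DGE they name hg19 with Bowtie2 2.2.3, and FastQC and DESeq2 without a version. How RNA-seq reads were counted, the use of strand and any collapsing of DGE molecular identifiers are not given in the sources used here. Genes overlapping these on the other strand could therefore add to RNA-seq counts.

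Each of 15 comparisons (12 between 2 groups, 3 differences between 2 responses) was fitted on all genes of a table with edgeR 4.0.16 in R 4.3.3 (filterByExpr, TMM scaling, quasi-likelihood test, two-sided, groups compared only, n = 3 per group). KI-JK and SU-DHL-1 tables were joined by gene identifier for the comparisons between them. P-values were adjusted by Benjamini-Hochberg over all genes tested, and genes under 0.05 are called. Values are log2 fold change ± SE, with the SE as the size of the log2 change over the square root of F. Levels are CPM scaled by TMM within an assay. Some of the fits between 2 groups were run on simulated counts with a single fixed dispersion, which need not match the spread of these tables. Ratios of summed DGE counts have 95% exact counting intervals, which cover counting error only. The PRO-seq table gives gene spans, and per kilobase values use them; 17711 of its identifiers matched a symbol. Date-like gene names (27 in RNA-seq) were restored by identifier, and 17 in DGE were left. No replicate pair was a duplicate (chi-square per degree of freedom of at least 1.36).

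All members are named, with up to 3 called genes of each pathway list by p and ZFP91 and CSNK2B as checks. Some genes of these lists are not reported here by name. Members, lists and tests were chosen with earlier results of these data known. Alternatives were DESeq2 1.42.0 and its size factors, library size alone, no filter, the replicate number as a block, all 4 groups in 1 fit, each library left out, and, added after seeing the data, the length score as a covariate. Regrown arms of 1 table came from the same 3 pools, which pairs them in the drug and knockout comparisons within regrown cells. There the correlation of same-pool deviations ran from -0.068 to 0.118 in DGE and from 0.0057 to 0.101 in RNA-seq.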

Additional observations from a re-analysis of the deposited data

Results flagged for a closer look

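Differences between 2 responses to the same treatment that passed the test were as follows. For the CSNK2B vector, KI-JK minus SU-DHL-1, the log2 difference was 0.647 for SPRY4, 0.634 for ETV5, 0.317 for SPRED1 and -0.322 for SPRED2, each kept in all 12 fits that left out 1 library. For the ZFP91 knockout, regrown minus parental cells, it was -0.615 for SPRED1, kept in 3 of 12 such fits and lost with the length score as a covariate. Groups of 3 libraries are too small for a check of single libraries that stand apart.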

How the results depend on the processing

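Of 639 values of single genes under another setting, 576 kept their direction and their side of the threshold, 40 kept the direction and lost the call, 21 gained one and 2 reversed. The reversals were in the knockout in regrown cells with the length score as a covariate, where DUSP4 was 2.00 and ETV5 0.100. That setting called 0 members there and 0 members for the difference between the knockout responses. Within regrown cells the scores of the 2 groups did not overlap, so the covariate fit could hardly tell score and knockout apart. In DGE regrown against parental cells under DMSO, 0 members called became 2 with no filter, 1 with the replicate block, 1 with all 4 groups in 1 fit and 0 to 2 with 1 library left out. Under lenalidomide 0 became 1 with no filter, 1 with all 4 groups in 1 fit and 0 to 1 with 1 library left out. The knockout in parental cells called 0 members with all 4 groups in 1 fit and 0 to 1 with 1 library left out. With 1 library left out, the knockout in regrown cells called 1 to 3 members and the difference between the knockout responses 0 to 3, where calls over all genes fell from 1399 to 0 in several fits. The causes were not tested. The replicate block called 4 members in place of 5 in RNA-seq of regrown against parental cells without doxycycline and 7 in place of 8 after the knockout, and, beside the DGE count under DMSO given above, changed no other count of members. Outside the regrown pools equal numbers are only names. DGE depth limits every DGE value: 5 members passed its filter in parental and 3 in regrown cells.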
